A study of Homo sapiens with 16 samples.

Results

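The genes described here are IL23A and 6 related cytokine genes of the IL6/IL12 family, namely IL12A, EBI3, IL27, IL6, IL11 and LIF. They were taken as a named list of 7 genes, and p65 binding around them was read from genome-wide chromatin immunoprecipitation sequencing (ChIP-Seq) tracks. All 200-bp bins from 50 kb upstream to 10 kb downstream of each gene were read on GRCh38, which gave 2356 bins out of 13927586 bins in the genome that held signal in at least 1 library. A bin was listed as bound when the mean of a group's 3 ChIP libraries was at least 2 and at least 4 times the matching input, on a scale of tags per position per 10 M tags. By this rule 20 bins were listed, and neighbouring bins joined into 10 sites: 3 around IL23A, 3 around EBI3, 1 around IL27 and 3 around LIF. No bin was listed around IL12A, IL6 or IL11. Coordinates, signal and sequence matches given for a site are those of its bin of highest mean.

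The study asked how estrogen receptor beta (ERβ) affects chromatin binding of p65 (RELA, a subunit of the transcription factor NFκB) in colon cancer cells. HT29 and SW480 are established human colorectal adenocarcinoma lines, and each carried either an empty vector (mock) or a stably transfected ERβ. All 4 groups (HT29 mock, HT29 ERβ, SW480 mock and SW480 ERβ) had been treated with TNFα at 30 ng/ml for 30 min before crosslinking with DSG and formaldehyde, so no library shows p65 without TNFα. Each group had 3 p65 ChIP libraries and 1 input library, 16 in all. ERβ was expressed from a transgene, no estrogen was added according to the methods, and the inputs of the ERβ groups had been made for another experiment of the same laboratory. ChIP-Seq tracks hold no expression, so the identity of each line could not be checked against marker genes, and more cells binding p65 could not be told apart from more p65 per cell.

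The tracks gave coverage scaled to 10 M tags, and the tracks themselves do not hold the number of reads. Read totals of the libraries were not used here and no counting interval is given. The ERβ transgene itself was visible: coverage of the ESR2 coding exons over its introns was 1.05 to 1.62 in the mock ChIP libraries, 4.05 to 6.93 in HT29 ERβ and 2.40 to 3.09 in SW480 ERβ. The libraries differed in overall enrichment. Over the 5789 bins that entered the genome-wide test, mean signal was 5.14 and 4.43 in replicate 1 of HT29 mock and HT29 ERβ against 2.14 to 2.73 in replicates 2 and 3, 2.07 to 2.55 in SW480 mock, and 3.07, 5.58 and 5.02 in SW480 ERβ. These levels differ between the groups within a line. Their part in the results below was not tested beyond a rescaling by library medians, whose values are given where they matter. That rescaling levels the libraries over the tested bins. It also removes any difference that most of these bins share, and it cannot tell such a difference from one in enrichment.

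These cytokines act through receptors that share subunits. IL23A encodes p19, which pairs with p40 (IL12B) to make interleukin 23. IL12A encodes p35, the partner of the same p40 in interleukin 12. EBI3 is a soluble receptor-like chain that pairs with the IL27 product p28 to make interleukin 27, while IL6, IL11 and LIF are ligands that signal through gp130 (IL6ST) and JAK kinases to STAT3. NFκB dimers bind κB elements, short sequences that start with a run of G and end with a run of C, and IL6 and IL23A are known NFκB targets in immune cells. Interleukin 23 and interleukin 6 are well known for their part in inflammation of the colon.

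The sequences below show κB matches at bound sites, so that the sites described can be read, and the κB matches in the promoters of IL12A and IL6, where no bound bin was listed. All are from the plus strand of GRCh38, and capitals mark the κB match. In the IL23A stretch, which runs up to the base before the transcription start site (TSS), the second run of capitals marks an AP-1 element (TGAGTCA).
IL23A promoter, chr12:56338701-56338883: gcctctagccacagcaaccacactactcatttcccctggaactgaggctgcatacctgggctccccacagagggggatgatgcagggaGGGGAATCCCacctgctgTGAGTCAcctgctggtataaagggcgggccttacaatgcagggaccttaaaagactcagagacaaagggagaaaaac
IL23A range, CS start, chr12:56300410-56300439: cccctctcaaGGGACTCTCCccgggcccgg
IL23A range, PAN2 start, chr12:56333931-56333960: tcagctccgcGGGAAATTCCagtttcccca
EBI3 promoter, chr19:4229183-4229212: ctgcctgcctGGGGTTTCCCccgcttcagg
EBI3 range, SIRT6 start, chr19:4182340-4182369: cttcctcactGGGAAGTCCCtcccattgtc
IL27 exon, chr16:28503983-28504012: tgggggccttGGGAATCCCCagacaccagc
IL12A promoter, chr3:159988781-159988810: ggtggtgggcGGGGTGTCCCgcccgcctgt
IL6 promoter, chr7:22727117-22727146: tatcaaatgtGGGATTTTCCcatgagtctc

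The search used the NFκB consensus on both strands and the AP-1 letters TGAGTCA and TGACTCA. Only the highest bin of each site was searched. A κB match was found in 7 of these 10 bins and an AP-1 match in 1, at the IL23A promoter. For comparison, a κB match was present in 47.8% of the 5789 tested bins of the genome, in 6.32% of the 2356 bins around the 7 genes and in 9.43% of 35116 RefSeq promoters of 300 bp (GRCh38.p14), where 5 of the 7 genes had an entry (IL27 and LIF had none). κB and AP-1 together, as at IL23A, occurred in 4.68% of the tested bins, in 2 of the 2356 bins and in 0.439% of the RefSeq promoters. In the promoters of EBI3 and IL11 an AP-1 match lay 118 and 96 bp upstream of the TSS. The EBI3 match lies in the listed promoter site, outside its highest bin. A match describes the letters only, and no match at a site says nothing about the factor.

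Listed bins were more frequent around these genes than in the genome in all 4 groups. In HT29 mock 8 of the 2356 bins (0.34%) were listed against 0.0433% of all bins in the genome, and in HT29 ERβ 8 (0.34%) against 0.0291%. In SW480 mock 4 bins (0.17%) were listed against 0.0108%, and in SW480 ERβ 19 (0.806%) against 0.0691%. Counting a bin listed in any group, the share was 0.849% around the members and 0.09% in the genome. As sites, by the bin of highest mean, 4 were listed in HT29 mock, 4 in HT29 ERβ, 3 in SW480 mock and all 10 in SW480 ERβ. Bins next to each other share fragments, and 6 of the 10 sites lay within 500 bp of the TSS of a protein-coding gene. Among them were the starts of CS, PAN2, YJU2 and SIRT6, which are not members. In both HT29 groups the listed sites were the CS, PAN2 and YJU2 starts and the LIF upstream site. The genome share covers all bins, also those far from any gene. The difference in shares was not tested.

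**Figure D1:**
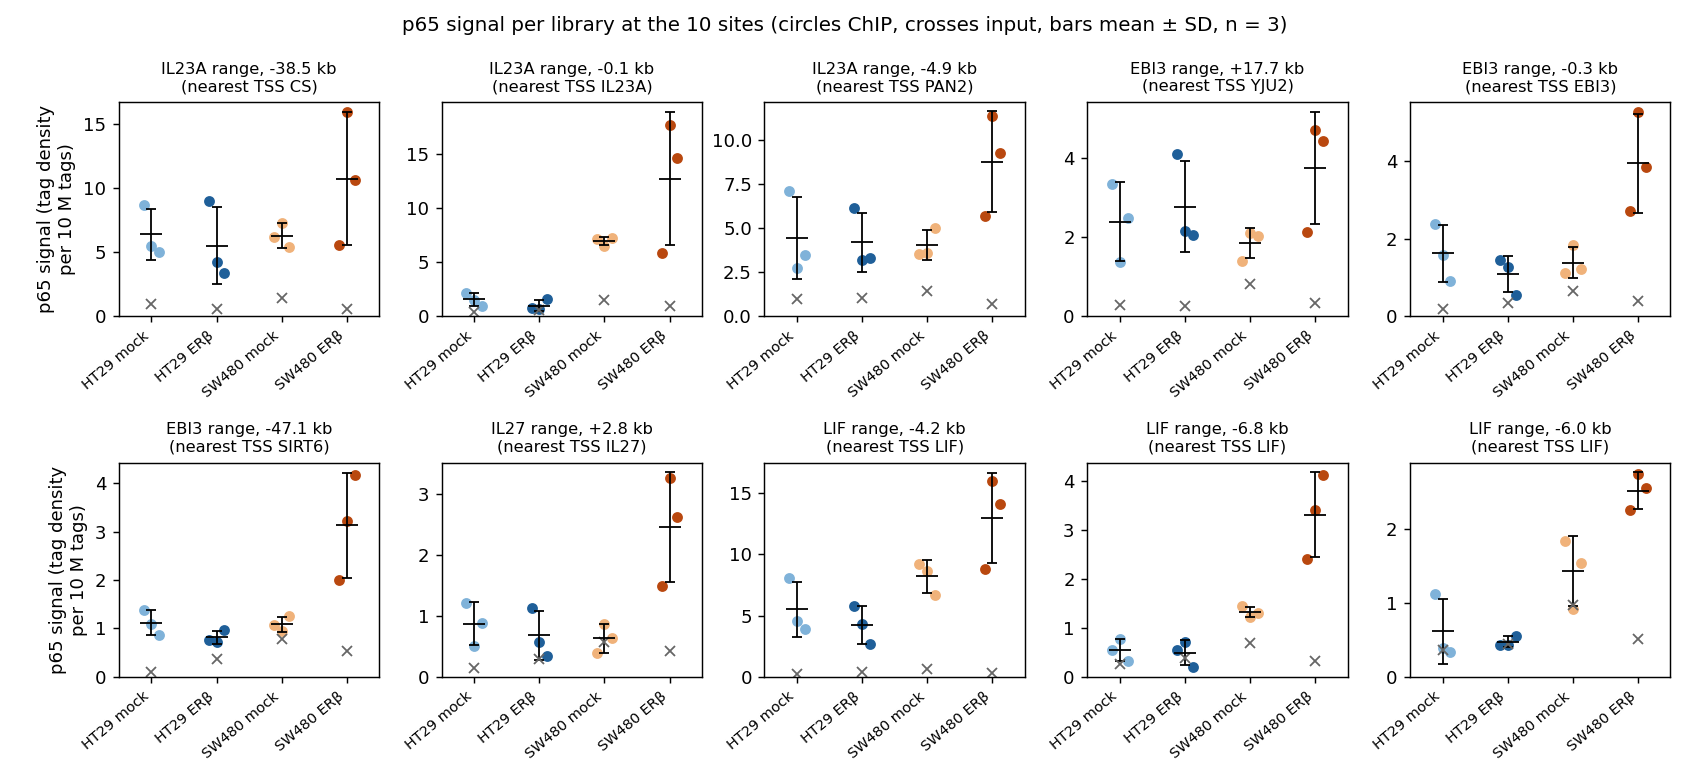
p65 ChIP signal (tag density per 10 M tags, a linear axis from 0 that differs between panels) at the highest bin of each of the 10 listed sites, with circles for ChIP libraries, crosses for inputs and bars for the mean ± SD (n = 3). At the IL23A promoter all SW480 libraries (5.82 to 17.8) lie above all HT29 libraries (0.640 to 2.12). The same holds at lower signal at the LIF site 6841 bp upstream (1.23 to 4.12 against 0.21 to 0.767). At the CS and PAN2 starts in the IL23A range the 2 lines overlap.

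The IL23A promoter carried more p65 signal in SW480 than in HT29, and the bin was listed in both SW480 groups and in neither HT29 group. The site, chr12:56338701-56338900, has its centre 84 bp upstream of the IL23A TSS (ENSG00000110944.9, chromosome 12, plus strand, TSS 56338884), and its last bases overlap the first exon in the 5′ UTR. The signal was 2.12, 1.52 and 0.975 in the 3 HT29 mock libraries and 0.715, 0.640 and 1.55 in HT29 ERβ. In SW480 mock it was 7.14, 6.51 and 7.24, and in SW480 ERβ 5.82, 17.8 and 14.7. All 6 SW480 libraries therefore lay above all 6 HT29 libraries, in cells with and without ERβ. Group means were 1.54 ± 0.573 (SD, n = 3) in HT29 mock, 0.968 ± 0.506 in HT29 ERβ, 6.96 ± 0.394 in SW480 mock and 12.8 ± 6.20 in SW480 ERβ, over inputs of 0.4, 0.531, 1.51 and 0.89. The means were thus 3.84, 1.82, 4.62 and 14.3 times the input of the bin itself, so the mock lines lay close to each other on that measure, on either side of the limit of 4, and at a limit of 6 the bin was listed in SW480 ERβ and not in SW480 mock. In order of level, SW480 ERβ and SW480 mock overlapped, SW480 mock and HT29 mock did not, and HT29 mock and HT29 ERβ overlapped again.

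The mean at the IL23A promoter was 4.53 times higher in SW480 mock than in HT29 mock, and 13.2 times higher in SW480 ERβ than in HT29 ERβ. On the log2(signal + 1) scale the differences were 1.67 (SE 0.35) and 2.71 (SE 0.42), and the mock difference had an adjusted p of 1.59e-05 (limma, Benjamini-Hochberg over 5789 bins). Both differences are from comparisons in which many bins pass: 43.9% of all tested bins were called between the mock lines and 39.1% between the ERβ lines. By size, 51 tested bins had a larger difference in favour of SW480 between the mock lines and 34 between the ERβ lines, whereas the medians of all tested bins were -0.43 and 0.46. The bin passed the filter of the fit (under which it needed a mean of 3.33) only with the SW480 ERβ libraries, since the other 9 averaged 3.16, so differences that use those libraries are descriptions in that fit. The ERβ comparison was tested only in the fit with no condition on input, whose filter the bin passed without them, and there the adjusted p was 0.000113 (limma). The mock p above is from the fit with the stricter filter, and the mock call also held in the fit with no condition on input. The exact two-sided permutation test of the bin gave p = 0.1 in either comparison, which is the smallest value that 3 against 3 can give. This bin was chosen with earlier results of these data known, and the grid was shifted to hold it. It was listed through the SW480 groups alone. The p-values of the line differences at this bin carry that choice and are no independent support.

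Input coverage moved with this line difference. Over the range read around IL23A, input was 1.16 and 1.31 times its genome mean in the HT29 mock and HT29 ERβ inputs and 1.94 and 1.67 times in the SW480 ones. When each library was divided by its own input over the surrounding 100 kb, the IL23A bin still differed between the lines by 1.05 in mock cells (adjusted p = 0.00647, limma), and by 2.27 in ERβ cells, which is a description. The window sets aside input over a wide stretch and not at the bin, where the single SW480 mock input (1.51) was also above the single HT29 mock input (0.4), and with 1 input a group that difference has no error. The mock difference kept its call in all 10 other settings and when any single library was left out.

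**Figure D2:**
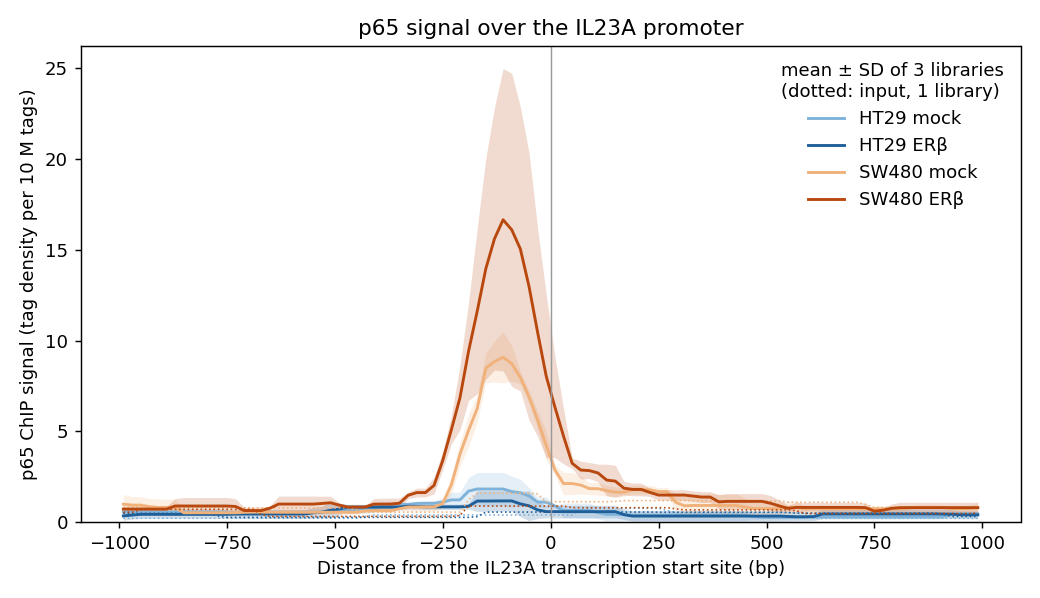
Mean p65 ChIP signal of each group (tags per position per 10 M tags, bands show the SD of 3 libraries, dotted lines the inputs) against distance from the IL23A TSS in bp. Both SW480 groups peak 110.5 bp upstream of the TSS (16.7 ± 8.33 with ERβ and 9.09 ± 1.42 in mock), and the HT29 groups stay at or below 1.83.

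In the finer profile the summit lay at the same distance in both SW480 groups, 110.5 bp upstream of the TSS, and the κB match began 95 bp upstream with the AP-1 match at 77 bp. The HT29 mock maximum was 1.83 ± 0.912 at 170.5 bp upstream, and the HT29 ERβ maximum was 1.17 ± 0.560. The neighbouring bin, which begins at 56338501, was also listed and had a difference of 1.19 between the ERβ lines. It shares fragments with the promoter bin, passed the filter only with the SW480 ERβ libraries and adds no independent measurement.

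ERβ made no detectable difference at the IL23A promoter in HT29. The mean with ERβ was 0.63 times that of mock, the ranges overlapped, and the log2 difference was -0.37 (SE 0.30, adjusted p = 1, limma). In SW480 the mean was 1.83 times higher with ERβ, with a log2 difference of 0.66, which missed the threshold in the fit with no condition on input (SE 0.29, adjusted p = 0.144, limma). Of 10 alternative settings 3 gave a call and 1 reversed the sign, with values of -0.25 to 0.81, and those calls are descriptions. The SW480 values overlapped, because ERβ replicate 1 (5.82) lay below all 3 mock libraries. The difference was 1.11 without that replicate and 0.38 without ERβ replicate 2, given as descriptions. ERβ replicate 1 also had the lowest overall enrichment of its group, 3.07 against 5.58 and 5.02, and when every library was scaled by its median ratio over the tested bins the difference turned to -0.25. The ERβ effect in SW480 minus that in HT29 was 1.03 (SE 0.45, adjusted p = 0.213 with no condition on input, limma), and -0.056 under the median-ratio scaling.

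The other 2 sites in the IL23A range sit at starts of neighbouring genes and were not called between the mock lines as deposited, whereas under the median-ratio scaling both were higher in SW480 mock, the first by 0.58 (adjusted p = 0.0107, limma) and the second by 0.52 (adjusted p = 0.0217). The first, chr12:56300301-56300500, lies 38484 bp upstream of the IL23A TSS and 9 bp from the TSS of CS (citrate synthase), over the 5′ UTR of its first exon. It was listed in all 4 groups. Its signal was 8.71, 5.52 and 5.01 in HT29 mock, 8.97, 4.22 and 3.34 in HT29 ERβ, 6.18, 7.31 and 5.42 in SW480 mock, and 5.58, 16.0 and 10.7 in SW480 ERβ. All 4 groups overlapped at this site. The difference between the mock lines was 0.00 on the log2 scale, against 1.67 at the IL23A promoter in the same libraries, and 0.58 against 2.27 under the median-ratio scaling.

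The second neighbouring site, chr12:56333901-56334100, covers the TSS of PAN2, a subunit of a poly(A) nuclease, 4884 bp upstream of the main IL23A TSS. It also lies beside the first bases of longer IL23A transcripts, so the bin cannot be given to PAN2 or IL23A alone. The signal was 7.08, 2.72 and 3.45 in HT29 mock, 6.12, 3.17 and 3.30 in HT29 ERβ, 3.51, 3.60 and 4.99 in SW480 mock, and 5.67, 11.4 and 9.24 in SW480 ERβ. In SW480 every ERβ library lay above every mock library. The difference of 0.92 (SE 0.32, adjusted p = 0.0161, limma) passed the threshold, at the 75.6th percentile of all tested bins. It was lost without SW480 mock replicate 1 (adjusted p = 0.111) or 2 (0.104) and without SW480 ERβ replicate 2 (0.112) or 3 (0.109), and it fell to 0.07 under the median-ratio scaling.

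EBI3 had a promoter site that reached a group mean of 2 in SW480 ERβ alone. Its 3 listed bins run from 4229101 to 4229700 on chromosome 19, past the TSS. The highest bin is chr19:4229101-4229300, with its centre 323 bp upstream of the EBI3 TSS (ENSG00000105246.6, plus strand, TSS 4229523), in intergenic sequence with a κB match beginning 330 bp upstream. Its signal was 2.37, 1.57 and 0.908 in HT29 mock, 1.44, 1.26 and 0.553 in HT29 ERβ, and 1.10, 1.83 and 1.21 in SW480 mock. In SW480 ERβ it was 2.72, 5.28 and 3.84, above all other libraries, whose mean was 1.36. The site entered the list through these 3 libraries, so the gap is a description of why it was listed. SW480 ERβ was 2.86 times SW480 mock and 3.63 times HT29 ERβ. Over inputs of 0.177, 0.34, 0.637 and 0.4 (HT29 mock, HT29 ERβ, SW480 mock, SW480 ERβ), the means were 9.12, 3.19, 2.17 and 9.86 times input, so HT29 mock was near SW480 ERβ on that measure, and with a minimum mean of 1.5 in place of 2 EBI3 had 2 listed sites in HT29 mock in place of 1.

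The EBI3 promoter bin and its neighbour, which begins at 4229301, passed the filter of the fit across all bins only with the SW480 ERβ libraries: they needed means of 1.55 and 1.52, and the other 9 libraries averaged 1.36 and 1.21. Their differences in that fit are therefore descriptions, at 1.03 (SE 0.33) and 1.10 (SE 0.32) for ERβ in SW480 and -0.32 and -0.17 for ERβ in HT29. The ERβ effect in SW480 minus that in HT29 was 1.35 (SE 0.47) and 1.27, against a median of 0.83 over all tested bins. Under the median-ratio scaling the SW480 difference at the EBI3 promoter was 0.35, and the differences between the lines in the ERβ effect fell to 0.53 and 0.50. With no condition on input, whose filter both bins passed without these libraries, both were called higher in SW480 ERβ than in SW480 mock and in HT29 ERβ. That fit called 5988 and 20652 of all 47556 bins in these 2 comparisons. Since the SW480 ERβ values put these bins on the list, those calls and calls of them in the counts of bins are descriptions too.

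**Figure D3:**
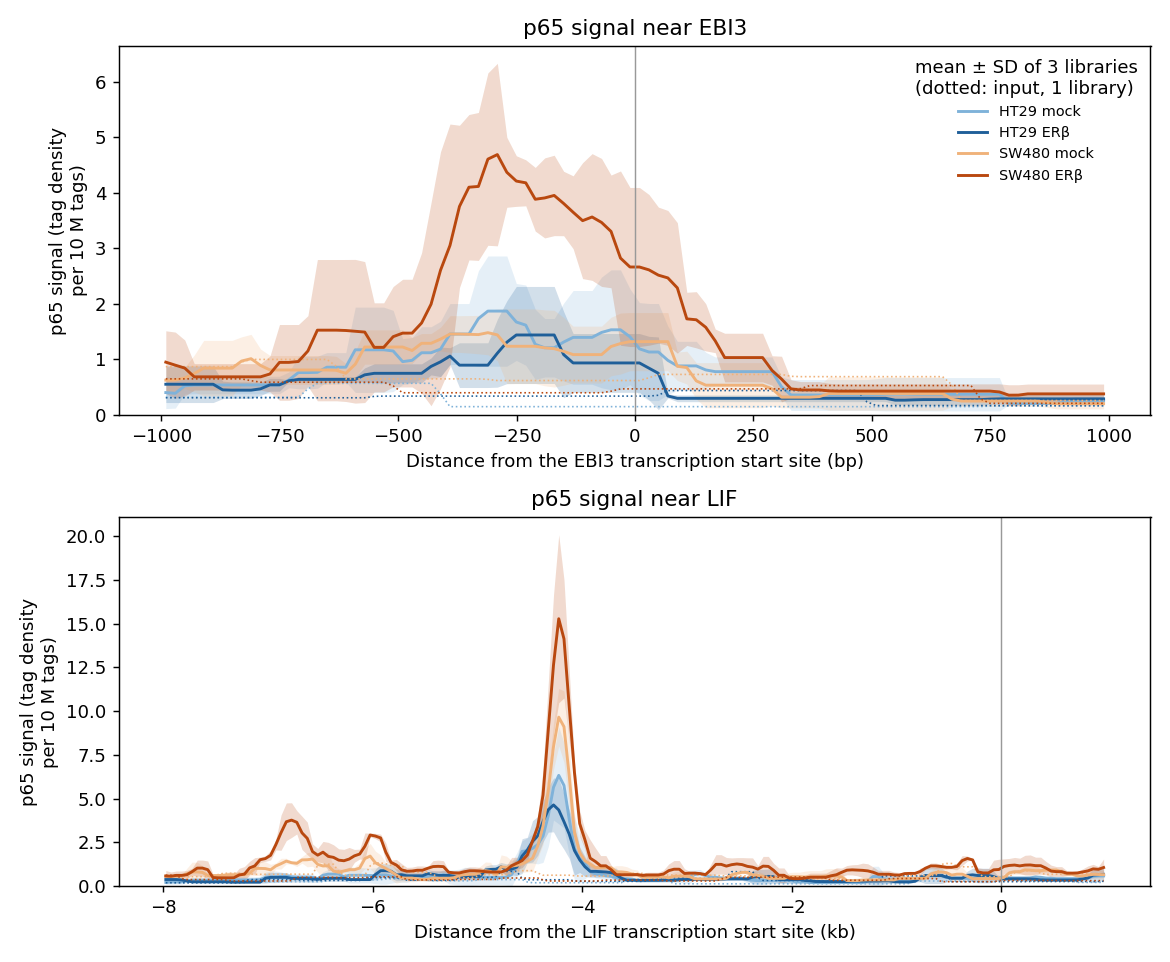
Mean p65 ChIP signal of each group (tags per position per 10 M tags, bands show the SD of 3 libraries, dotted lines the inputs) against distance from the TSS of EBI3 (in bp) and of LIF (in kb). At EBI3 the SW480 ERβ profile rises to 4.69 ± 1.64 at 290.5 bp upstream and the other groups stay low, whereas at LIF all 4 groups peak 4225.5 or 4275.5 bp upstream.

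The other sites in the EBI3 range lay at starts of neighbouring genes. The site at chr19:4247101-4247300, which overlaps the first coding exon of YJU2 (a splicing factor), 17677 bp downstream of the EBI3 TSS, was listed in every group but SW480 mock. Its values were 3.33, 1.35 and 2.48 in HT29 mock, 4.09, 2.15 and 2.05 in HT29 ERβ, 1.40, 2.10 and 2.03 in SW480 mock, and 2.11, 4.70 and 4.41 in SW480 ERβ. The SW480 groups nearly touched (2.10 and 2.11), and the difference of 0.70 missed the threshold (adjusted p = 0.0696, and 0.0138 with the replicate block, limma). Division by local input gave 0.86 (adjusted p = 0.0169, limma), and the median-ratio scaling turned it to -0.03. After the same division the site was called lower in SW480 mock than in HT29 mock (-0.86, adjusted p = 0.0275, limma). No κB match was found in its highest bin. The site at chr19:4182301-4182500 in a coding exon of SIRT6 (a protein deacylase), 47123 bp upstream of the EBI3 TSS, was listed in SW480 ERβ alone, at 2.00, 3.21 and 4.18 against 0.729 to 1.38 in the other 9 libraries. That gap is what listed it. Relative to input HT29 mock (11.2 times an input of 0.1) was above SW480 ERβ (5.93 times).

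LIF was the member with the strongest distal site, and it was listed in all 4 groups. The site at chr22:30250901-30251100 is intergenic, 4241 bp upstream of the LIF TSS (ENSG00000128342.5, minus strand, TSS 30246759). The signal was 8.09, 4.58 and 3.89 in HT29 mock, 5.77, 4.29 and 2.65 in HT29 ERβ, 9.25, 8.64 and 6.70 in SW480 mock, and 8.84, 16.0 and 14.1 in SW480 ERβ. These means, 5.52 ± 2.25, 4.24 ± 1.56, 8.20 ± 1.33 and 12.98 ± 3.70 (SD, n = 3), were 27.6, 11.5, 13.01 and 43.3 times their inputs. The mock lines overlapped, and so did mock and ERβ in either line, whereas all SW480 ERβ libraries lay above all HT29 ERβ libraries.

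Between the ERβ lines the LIF upstream site was 3.06 times higher in SW480, a log2 difference of 1.42 (SE 0.45, adjusted p = 0.00675, limma). It missed the threshold without HT29 ERβ replicate 3 (adjusted p = 0.0892) or without SW480 ERβ replicate 2 (0.0729) or 3 (0.0786). Between the mock lines it was 1.48 times higher in SW480 and was not called as deposited, with a log2 difference of 0.54, while the median-ratio scaling gave 1.14 (adjusted p = 1.73e-05, limma) and division by local input turned it to -0.19. For ERβ the differences were 0.58 in SW480 (adjusted p = 0.126) and -0.31 in HT29, and neither was called as deposited. In SW480 division by local input gave 0.88 (adjusted p = 0.0203) and the median-ratio scaling turned it to -0.34. Input over the LIF range was 0.747 and 0.948 times the genome mean in the HT29 inputs and 1.44 and 1.11 times in the SW480 inputs.

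A pair of weaker sites lay farther upstream of LIF, at 6841 bp (chr22:30253501-30253700) and 6041 bp (chr22:30252701-30252900), both intergenic and listed in SW480 ERβ alone. The first held 2.40, 3.40 and 4.12 in SW480 ERβ, 1.44, 1.23 and 1.30 in SW480 mock and 0.21 to 0.767 in HT29. The second held 2.26, 2.75 and 2.56 in SW480 ERβ, 1.84, 0.913 and 1.55 in SW480 mock and 0.34 to 1.12 in HT29. The order of the groups was the same as at the 4241-bp site in that both SW480 means exceeded both HT29 means. At the 6841-bp site all SW480 libraries lay above all HT29 libraries, as at the IL23A promoter. Neither bin held a κB match, and neither passed the filter of the genome-wide fit.

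IL27 had 1 listed bin, inside the gene and not at its start, and none when the 200-bp grid was not shifted, at a group mean of at least 3 or at 6 times input. It lies at chr16:28503901-28504100, 2834 bp downstream of the IL27 TSS (ENSG00000197272.2, minus strand, TSS 28506834), and overlaps an IL27 exon with coding and UTR sequence. The signal was 1.22, 0.506 and 0.887 in HT29 mock, 1.13, 0.572 and 0.34 in HT29 ERβ, 0.39, 0.867 and 0.645 in SW480 mock, and 1.49, 3.26 and 2.63 in SW480 ERβ. All SW480 ERβ values were above all others, and the bin was listed for that reason, so no test is given. Over input, HT29 mock (6.22 times an input of 0.14) was above SW480 ERβ (5.72 times). The lowest of them, 1.49, was close to the highest HT29 mock value of 1.22.

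IL12A, IL6 and IL11 had no bound bin under the rule, although IL11 had 1 listed site in HT29 mock without HT29 mock replicate 2. For IL6, whose promoter holds a κB match 73 bp upstream of the TSS, the highest bin of the range lay 28800 bp upstream in an intron of STEAP1B (chr7:22698301-22698500), with group means of 0.556 in HT29 mock, 0.689 in HT29 ERβ, 0.536 in SW480 mock and 1.41 in SW480 ERβ. For IL12A, the highest bin lay 1235 bp upstream of the TSS (chr3:159987501-159987700) with a mean of 0.638 over the 12 ChIP libraries. For IL11, it lay 10863 bp downstream of the TSS over an exon of GARIN5B (chr19:55359501-55359700). Its group means were 1.72, 1.49, 0.555 and 0.975 in the order HT29 mock, HT29 ERβ, SW480 mock and SW480 ERβ, so both HT29 means were above both SW480 means, the opposite order to the IL23A promoter. None of these bins reached a group mean of 2 over all 3 libraries.

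**Figure D4:**
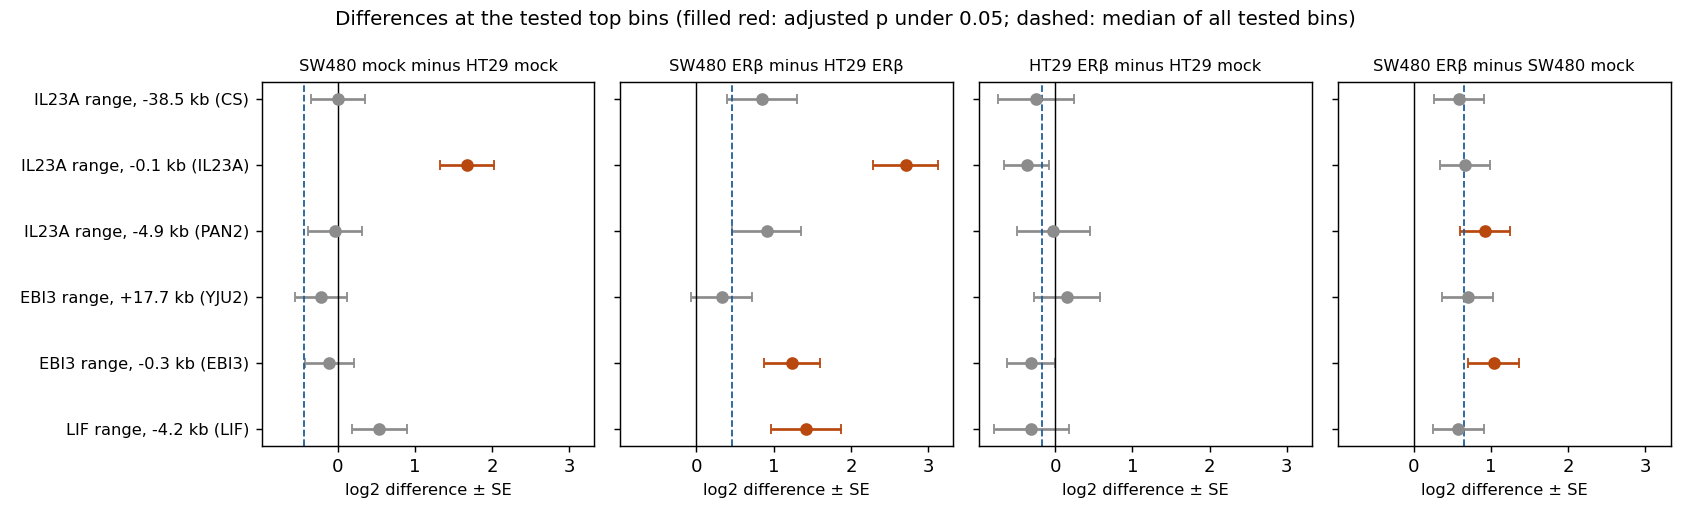
Log2 differences between groups (log2(signal + 1) scale) with their SE at the highest bins of the 6 sites that were tested, for the 4 pairwise comparisons, where red points passed an adjusted p of 0.05 and the dashed lines show the median of all tested bins. Points of the IL23A and EBI3 promoters in comparisons with SW480 ERβ are descriptions. The IL23A promoter lies farthest to the SW480 side in both line comparisons, at 1.67 and 2.71.

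Of the 2356 bins around the 7 genes, 13 passed the filter of the genome-wide fit (mean of at least 1 over the 12 ChIP libraries and 4 times the mean input), among them the highest bins of 6 sites. Of the 13, 4 passed only with the SW480 ERβ libraries, namely both bins of the IL23A promoter and both of the EBI3 promoter, so the counts below for comparisons that use SW480 ERβ are descriptions. Between the mock lines 1 of the 13 was called, the IL23A promoter, against 43.9% of all tested bins. Their median difference was -0.04, against -0.43 for all tested bins. Between the ERβ lines 6 were called, all higher in SW480, at the IL23A promoter (2 bins), the EBI3 promoter (2 bins) and the LIF upstream site (2 bins), against 39.1% of all. The median was 0.91, against 0.46 over all. In these comparisons the split of all called bins depends on scaling: between the mock lines 603 were higher and 1941 lower in SW480 as deposited, and 1679 and 1593 under the median-ratio scaling, and between the ERβ lines 1706 and 560 against 1747 and 1677. Under that scaling the medians of all tested bins were 0.03 and 0.01.

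For ERβ in HT29 none of the 13 member bins was called by limma, against 0.0173% of all bins, and none had an unadjusted p under 0.05. With the replicate block 0 of the 13 were called, against 2.33% of all bins, and 1 had an unadjusted p under 0.05. The share of all bins at that unadjusted level is not given, so the unadjusted counts in this paragraph have no background beside them. For ERβ in SW480 3 of the 13 were called (the PAN2 start and both EBI3 promoter bins) against 42.1% of all bins, and 8 with the replicate block against 63.2%. All 13 differences were above 0 there, as were 97.4% of all tested bins, and the median was 0.66 for the members against 0.65 over all. Under the median-ratio scaling 0 of the 13 were called by limma and none had an unadjusted p under 0.05, 4 of 13 differences were above 0, and the split of all called bins went from 2437 higher and 1 lower to 259 and 118. For the ERβ effect in SW480 minus that in HT29, 2 of the 13 (both EBI3 promoter bins) were called against 10.6% of all bins, and 9 with the replicate block against 67.8%, among them the highest bins at the IL23A promoter, the CS and PAN2 starts and the LIF upstream site. The comparisons share their control groups, since each mock and each ERβ group enters more than 1 of them.

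The promoters of all 7 genes, read over 1 kb before and 100 bp after the TSS, were tested together with all 19970 protein-coding promoters whether bound or not. IL23A had the highest mean of the 7 over the 12 ChIP libraries, 1.81, at the 98.5th percentile of all promoters. EBI3 followed at 1.30 (96.7th percentile) and LIF at 0.639 (71.2nd), whose site lies outside this window. IL6 at 0.528 (54.9th), IL12A at 0.498, IL11 at 0.465 and IL27 at 0.282 (13.8th) were near or below the middle of all promoters. The IL6 promoter was level across groups, at 0.524, 0.556, 0.519 and 0.515 in the order HT29 mock, HT29 ERβ, SW480 mock and SW480 ERβ, over inputs of 0.684, 0.486, 0.607 and 0.494.

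**Figure D5:**
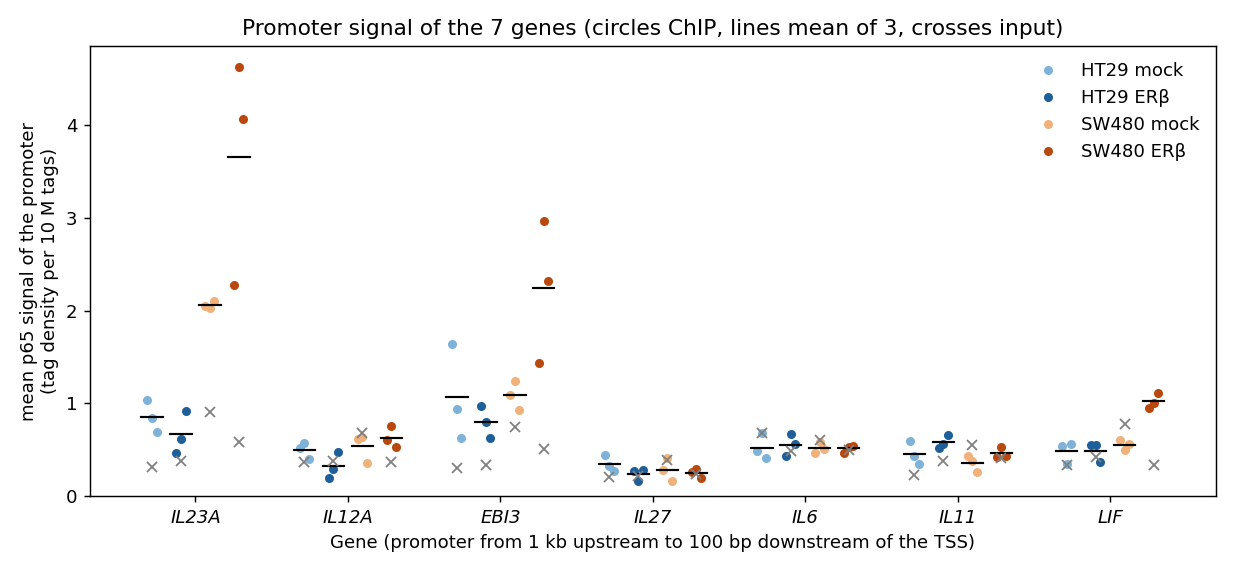
Mean p65 ChIP signal (tags per position per 10 M tags) over the promoters (1 kb before to 100 bp after the TSS) of the 7 genes in each of the 12 ChIP libraries (circles), with horizontal lines for group means and crosses for inputs. IL23A lies between 0.466 and 1.04 in HT29 and between 2.03 and 4.63 in SW480, whereas IL6 lies near its inputs in all groups.

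Over this window IL23A was at 1.04, 0.846 and 0.688 in HT29 mock, 0.466, 0.620 and 0.913 in HT29 ERβ, 2.05, 2.03 and 2.10 in SW480 mock, and 2.27, 4.63 and 4.06 in SW480 ERβ. All SW480 libraries lay above all HT29 libraries here too, and in SW480 all ERβ libraries above all mock libraries. Between the mock lines 1 of the 7 promoters was called, IL23A, by 0.72 (SE 0.09, adjusted p = 0.00873, limma), against 13.1% of all promoters. When libraries were divided by local input the difference was 0.28 and was not called (adjusted p = 0.188). Between the ERβ lines 3 were called, all higher in SW480, against 19% of all (3524 higher and 272 lower in SW480, and 146 and 213 under the median-ratio scaling): IL23A by 1.45 (SE 0.22, adjusted p = 0.0125), EBI3 by 0.83 (SE 0.18, adjusted p = 0.0277) and LIF by 0.44 (SE 0.08, adjusted p = 0.0167). Leaving out HT29 ERβ replicate 2 brought that count to 0 and leaving out HT29 ERβ replicate 3 to 1. Calls over all promoters fell from 3796 to 859 and 1040 in these fits. The EBI3 call was also lost without SW480 ERβ replicate 2 or 3, after division by local input (0.59), under the median-ratio scaling (0.52) and with the replicate block (adjusted p = 0.0679, limma). The LIF call was lost in the narrower promoter window (0.30), under the median-ratio scaling (0.22) and with the replicate block (adjusted p = 0.0598, limma).

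No member promoter was called by limma for ERβ in either line or for the difference between lines in the ERβ effect, where 0.00501%, 0% and 0% of all promoters were called. At an unadjusted p under 0.05 there were 0 of 7 in HT29, 3 in SW480 and 3 for the difference. The share of all promoters at that unadjusted level is not given here, so these counts have no background beside them. The IL23A promoter differed by -0.16 for ERβ in HT29 and by 0.57 in SW480. Without SW480 ERβ replicate 1, whose enrichment was low, 2 member promoters were called for ERβ in SW480, IL23A among them by 0.80 (adjusted p = 0.0428, limma). That fit called 201 of all 19970 promoters, all of them higher with ERβ. A missed threshold does not show that the promoters were alike.

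A further 28 genes of the pathway were read in the same fit, to set the 7 cytokine genes beside their partners, receptors and signalling genes. Between the mock lines 3 of the 28 were higher and 1 lower in SW480, where 13.1% of all promoters were called, so the list was near the background. Among the higher ones were OSMR, a receptor for oncostatin M (0.22), and SOCS3, a feedback inhibitor of gp130 signalling (0.36). Both moved with input: SOCS3 was at 0.923 over an input of 1.12 in SW480 mock and at 0.50 over 0.381 in HT29 mock, and OSMR at 0.436 over 0.393 and 0.229 over 0.215. After division by local input neither was called, and calls over all promoters fell from 2625 to 37. CLCF1, itself a gp130 ligand, was the lower one (-0.58, adjusted p = 0.0489, limma). Between the ERβ lines 5 were higher in SW480 and none lower, near the 19% of all promoters called: IL27RA, the receptor of interleukin 27 (0.76, adjusted p = 0.0193, limma), CISH, a SOCS-family gene (0.58, adjusted p = 0.0115, limma), SOCS3 (0.39), CNTFR (0.31) and IL12RB2, a receptor chain for interleukin 12 (0.24). In SW480 ERβ their signal was, in that order, 1.36 over an input of 0.489, 1.07 over 0.588, 1.09 over 0.782, 0.534 over 0.269 and 0.411 over 0.384. In HT29 ERβ it was 0.376 over 0.328, 0.382 over 0.386, 0.595 over 0.689, 0.236 over 0.211 and 0.192 over 0.403. The median over the list was 0.01 between the mock lines and 0.16 between the ERβ lines, against 0.06 and 0.12 over all promoters.

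For ERβ in HT29, ERβ in SW480 and the difference between them, limma called none of the 28, and 2, 7 and 6 had an unadjusted p under 0.05. The share of all promoters at that unadjusted level is not given here either. Of the 28 promoters, 6 had a mean of at least 1 over the 12 ChIP libraries, among them TYK2, a kinase of these receptors (2.10), CLCF1 (1.51), the shared receptor IL6ST (1.43), JAK2 (1.12) and PIAS3, an inhibitor of STAT3 (1.02). Of all promoters, 1412 reached that mean. Among these 6, only CLCF1 was called in any comparison.

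Across the 12 ChIP libraries, the promoters most like IL23A in their log2 signal were LMO7 (Pearson r = 0.982), KCNH2 (0.968), AKAP13 (0.965), FGF18 (0.964) and STX11 (0.964), out of 1411 promoters compared. The points share their libraries, the overall enrichment of each library and the 2 lines, so r is a description only. Within lines, r for LMO7 was 0.914. Of the cytokine genes, EBI3 had r = 0.82, with 184 promoters more like IL23A, and LIF r = 0.79, with 245. IL12A was at 0.69, and IL6, IL27 and IL11 were at -0.03, -0.10 and -0.24. LMO7 had group means of 0.849 and 0.736 in HT29 and 1.78 and 2.54 in SW480, mock before ERβ.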

How the data were processed

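The authors deposited 1 coverage track per library (12 p65 ChIP libraries and 4 inputs). Per the labels and methods, reads were aligned to GRCh38 (hg38) with STAR and tracks were made with HOMER, which extends tags and scales each track to 10 M tags, so the deposited signal is coverage per 10 M tags and not a count. Versions were not given in the sources used here. The headers of the ERβ input tracks carry no mark of ERβ, and the labels name an antibody for inputs too. The replicates are named biological, with no more said, so p-values rest on the spread between these libraries. In the main bin fits that spread was the one expected at the mean of the bin and not its own.

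Mean signal was computed in 200-bp bins on a grid shifted by 100 bp. The shift was chosen so that the IL23A promoter interval was a bin, while other bins were not aligned to their sites. Listed bins had a group mean of at least 2 and 4 times the matching input (inputs under 0.05 were read as 0.05), and listed bins at most 200 bp apart formed 1 site, named by the bin of highest mean. All sites were named, and for genes without one the highest bin. Pathway genes were named when called or with a promoter mean of at least 1 (some of these, and 1 sequence, are not reported here), and the 5 promoters most like IL23A were named. Bins with a mean of at least 1 over 12 ChIP libraries and 4 times the mean input, and all promoters (GENCODE 44, 1 kb upstream to 100 bp downstream), were fitted as log2(signal + 1) in limma 3.58.1 (R 4.3.3) with a mean-variance trend, on the groups compared (all 12 for the difference between lines), with Benjamini-Hochberg adjustment and a threshold of 0.05. A log2 difference on this scale understates the change of low values. In the main bin fits limma gave every bin the spread expected at its mean and none of its own. In the bin fits with no condition on input and with median-ratio scaling, the spread of the bin itself also entered. The steps were tested on simulated data. Python 3.11.15, pysam 0.24.0, scipy 1.17.1 and samtools 1.23.1 were used. Members, lists and tests were chosen with earlier results of these data known.

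Replicate numbers come from the labels, which do not say what a number shares. Deviations from group means of same-numbered libraries correlated at 0.53, 0.205 and 0.217 in HT29 and 0.30, 0.18 and 0.252 in SW480, over 0.1 for every pair, but in HT29 replicates 2 and 3 correlated as well across numbers (0.218 and 0.159). Same-numbered libraries correlated at -0.06 to 0.05 across lines. The replicate block can be read as a pairing within lines only. It was also fitted between lines as an alternative setting, where same-numbered libraries did not correlate.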

Additional observations from a re-analysis of the deposited data

Results flagged for a closer look

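The fit across 12 ChIP libraries called the effect of ERβ different between the lines at 2 neighbouring bins of the EBI3 promoter. The log2 difference in SW480 minus that in HT29 was 1.35 at chr19:4229101-4229300 and 1.27 at the bin that begins at 4229301. Both bins entered that fit, and the list of sites, only through the SW480 ERβ libraries, so the values are descriptions. The call was lost at both bins with no condition on input and under the median-ratio scaling, where the values were 0.53 and 0.50, and at the first bin it was lost in 9 of 13 fits that left out libraries. The bins share fragments. Over all tested bins the median of this difference was 0.83.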

How the results depend on the processing

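The difference between the mock lines at the IL23A promoter bin kept its direction and its call under all 10 alternatives and without each single library (1.05 to 2.27, and 1.51 to 1.84 without a library). In ERβ cells, where the bin passed the filter only with the SW480 ERβ libraries, the values were 2.17 to 3.35 and 2.42 to 3.15, as descriptions. All counts of member bins are out of 13 tested, except 6 with 400-bp bins, 11 on the unshifted grid and 40 with no condition on input, so those are not comparable as counts. For member bins called between the mock lines (1), the count was 4 after division by local input (1 higher and 3 lower in SW480), 6 with median-ratio scaling, 8 with no condition on input and 1 to 3 without single libraries (3 without HT29 mock replicate 1). Among all tested bins those fits called 2521, 3272, 21870 (of 47556) and 2741, the last without that replicate, against 2544 of 5789 as reported. Between the ERβ lines (6) the count of member bins was 3 with 400-bp bins, 16 with no condition on input, 1 with the replicate block and 2 to 8 without single libraries (2 without HT29 ERβ replicate 3, 3 without SW480 ERβ replicate 3). In that order these fits called 982 (of 2700), 20652 (of 47556), 1209, 1653 and 1494 of all tested bins, against 2266 as reported. For ERβ in HT29 the count of member bins was 0 throughout. For ERβ in SW480 (3) it was 9 after division by local input, 0 with median-ratio scaling, 8 with no condition on input, 8 with the replicate block and 0 to 11 without single libraries (1 without SW480 mock replicate 1, 11, 1 and 0 without SW480 ERβ replicates 1, 2 and 3). In that order these fits called 3212, 377, 5988 (of 47556), 3661, 884, 4757, 1177 and 931 of all tested bins, against 2438 as reported. For the difference between lines in the ERβ effect (2) the count of member bins was 0 with 400-bp bins, 0 with median-ratio scaling, 1 on the unshifted grid, 9 with the replicate block, 1 with robust empirical Bayes and 0 to 4 without single libraries: 4 without HT29 ERβ replicate 1, 1 without HT29 mock replicate 2, 2 without HT29 mock replicate 3, 3 without SW480 ERβ replicate 1, and 0 without each of the other 8. In that order the settings called 227 (of 2700), 111, 634 (of 5782), 3924 and 607 of all tested bins, against 616 as reported. Without the libraries named, in the same order, 2708, 764, 483 and 2248 were called. An alternative added after seeing the data left out replicate 1 of both HT29 groups together. It gave 2 member bins here and 0 for ERβ in HT29, where 1710 and 31 of all tested bins were called.

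Member promoters called between the mock lines (1) went to 0 after division by local input, with 1 without any single library. Calls over all promoters went from 2625 to 37 after that division. Between the ERβ lines (3) member promoters called were 1 with median-ratio scaling, 1 with the replicate block and 0 to 3 without single libraries. Calls over all promoters went from 3796 to 359 with that scaling and to 1046 with the block. For ERβ in SW480 (0) member promoters called were 2 with a low-value limit of 0.5 and 0 to 2 without single libraries. With that limit 717 of 9924 promoters were called. Listed sites in SW480 mock (3) went to 1 at 6 times input. Without single libraries they were 3 to 5 in HT29 mock, 4 in HT29 ERβ, 3 in SW480 mock and 10 to 11 in SW480 ERβ, and with the mean of the line's inputs, also added after seeing the data, 4, 4, 3 and 9. Median-ratio scaling reversed these differences: for ERβ in SW480, the IL23A promoter bin (-0.25), the YJU2 start (-0.031), the CS start (-0.31) and the LIF upstream site (-0.34), and for the difference between lines in the ERβ effect, the IL23A promoter bin (-0.056), the CS start (-0.27), the PAN2 start (-0.13), the YJU2 start (-0.38) and the LIF upstream site (-0.25). The replicate block also ended the call between the ERβ lines at the LIF upstream site (adjusted p = 0.132), where same-numbered libraries did not correlate. The causes were not tested.

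Limits: the tracks hold no read totals, each group has 1 input and 3 ChIP libraries, the ERβ libraries of SW480 differ from mock in overall enrichment, and 3 against 3 cannot reach an exact p under 0.1. Binding and expression were not compared.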
